A study of Mus musculus with 8 samples.

Results

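The adrenergic receptor genes described here were 8 of the 22873 genes counted: Adra1a, Adra1b and Adra1d of the alpha-1 class, Adra2a, Adra2b and Adra2c of the alpha-2 class, and Adrb1 and Adrb3 of the beta class. They were taken by gene symbol. The data were single nucleus RNA-seq profiles of 34357 nuclei from the mouse iris with a varying amount of ciliary body, in 8 libraries, each from a separate pool of 5 to 6 irises of female albino, wild-type mice aged 6 to 8 weeks. In 2 dilated libraries, eye drops of 5% phenylephrine and 1% cyclopentolate had been given every hour, with harvest at 6.5 hours and the mice in the dark. In 3 constricted libraries 5% pilocarpine had been given on the same schedule with the mice in the light, and 3 libraries were untreated. Since phenylephrine, cyclopentolate and darkness came together, their effects cannot be told apart, and the same holds for pilocarpine and light.

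Adrenergic receptors are G protein-coupled receptors for noradrenaline, which sympathetic nerves release in the iris, and for circulating adrenaline. Alpha-1 receptors act through Gq, phospholipase C and calcium and drive contraction of the dilator muscle. Alpha-2 receptors act through Gi and lower cyclic AMP, and beta receptors act through Gs and raise it. Phenylephrine is an alpha-1 agonist, cyclopentolate blocks muscarinic acetylcholine receptors and pilocarpine activates them.

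The authors' cell types were dilator muscle, sphincter 1 and 2 (muscle of the pupil margin), iris pigment epithelium (iris PE), ciliary body epithelium (CBE), ciliary body (CB), stroma 1 and 2, leukocytes and endothelial cells. The libraries held 5189437 to 25136427 unique molecular identifiers (UMIs, each counting 1 captured RNA molecule) and 1274 to 7321 nuclei, with median UMIs per nucleus of 2775 to 4697.5. Of 37 markers listed for these cell types, 29 had their highest untreated level in the type they were listed for. All listed sphincter 2 markers (Chrm3, Syt1 and Myh11) were highest in sphincter 1, as were Myh11 and Acta2 of the dilator list. Of the iris PE list, Pax6 was highest in CB and Otx1 in CBE, and Zic1, listed for CBE, was highest in iris PE. A total of 400 nuclei carried a barcode also present in another library, and untreated 1 and dilated 1 shared 63 barcodes, against at most 18 in any other pair. These 63 were 4.26% of the nuclei of untreated 1, and 59 of them had the same cell type in both libraries. The cause of this sharing was not tested. Levels are given as CPM, the UMIs of a gene in 1000000 UMIs summed over the nuclei of a cell type in a library. Since the cell types had been clustered from the same counts, differences in level between them are described without a test.

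In the untreated iris Adra1a was highest in dilator muscle, Adra1b and Adra2a were highest in stroma 2, and Adrb1 was highest in endothelial cells. Over all libraries Adra1a had 17964 UMIs, of which 90.5% were in dilator muscle. Adra1b had 4868 UMIs, of which 61.9% were in stroma 2 and 29.3% in dilator muscle. Adra2a had 1108 UMIs, and 88.5% of them were in stroma 2. The other members were sparse, with 58 UMIs of Adrb1, 26 of Adra2c, 25 of Adrb3, 16 of Adra1d and 14 of Adra2b.

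**Figure D1:**
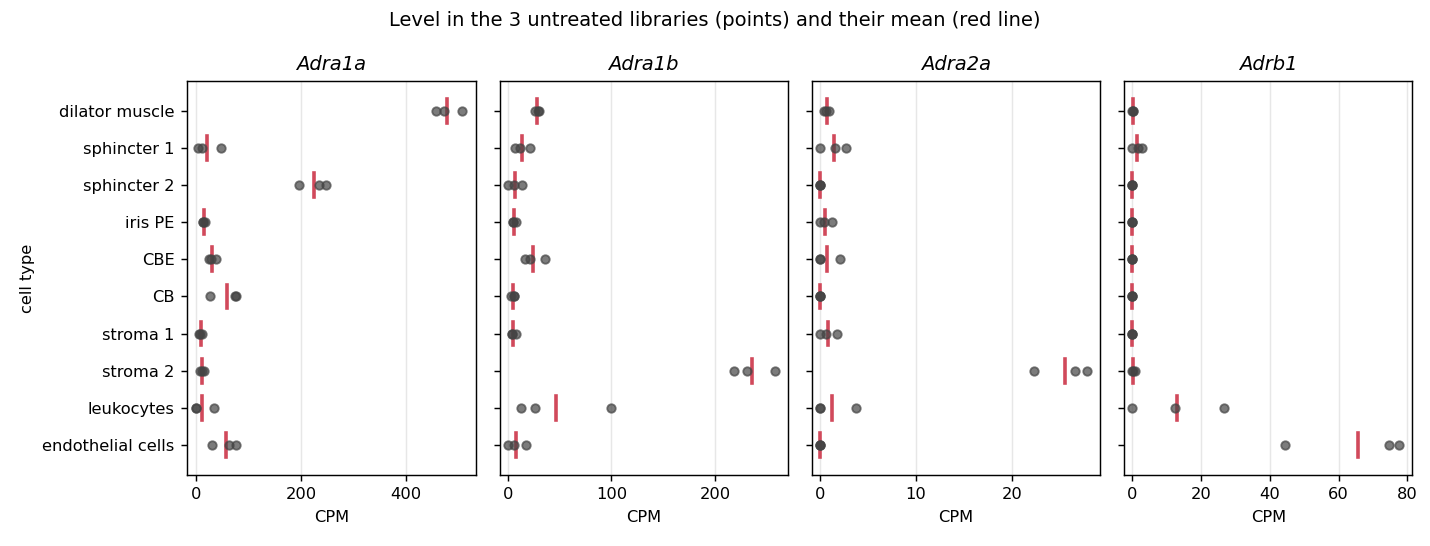
Level in CPM of Adra1a, Adra1b, Adra2a and Adrb1 (x axis, a separate scale for each gene) in the 10 cell types (y axis), with 1 point for each of the 3 untreated libraries and a red line at their mean. Adra1a stood highest in dilator muscle (456 to 507 CPM) and then in sphincter 2, Adra1b and Adra2a in stroma 2, and Adrb1 in endothelial cells.

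Adra1a, which encodes the alpha-1A receptor, lies at chr14:66635251-66771168 (GRCm38, plus strand), and introns make up 93.6% of its span. In untreated dilator muscle its level was 507, 456 and 473 CPM, a mean of 479 ± 25.8 (SD, n = 3). The next type was sphincter 2, at 247, 196 and 234 CPM (226 ± 26.9, n = 3), so that the dilator level was 2.12 times higher and the libraries of the 2 types did not overlap. CB followed at 59.8 ± 28.4 CPM (n = 3), again without overlap with sphincter 2. Below CB each type overlapped with its neighbour in the order, from endothelial cells (57.5 CPM, on 20 UMIs), CBE (30.8 CPM) and sphincter 1 (22.3 CPM) down to iris PE, stroma 2, leukocytes and stroma 1, which was lowest at 9.50 CPM. The sphincter 1 value was uneven, with 5.38, 12.8 and 48.7 CPM in the 3 untreated libraries.

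By nuclei, Adra1a was detected in 68.5% of untreated dilator nuclei (2986 of 4357, exact 95% interval 67.1% to 69.9%), at a median of 3410 UMIs per nucleus. In stroma 1, the type with the lowest level, it was detected in 2.32% of nuclei at a median of 2691 UMIs. The share in sphincter 2 was 42.0% (148 of 352 nuclei), and in sphincter 1 it was 7.17%. After each nucleus was thinned to 1000 UMIs at random, which left out 444 nuclei with fewer, the shares were 36.1% in dilator muscle, 16.2% in sphincter 2 and 1.02% in stroma 1. These intervals cover counting error only.

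Adra1b, which encodes the alpha-1B receptor, lies at chr11:43774606-43901210 (GRCm38, minus strand), with introns over 97.3% of its span. In untreated stroma 2 it stood at 219, 258 and 231 CPM (236 ± 19.9, n = 3), and 32.5% of the nuclei had a UMI (18.4% after thinning). The next mean, 46.1 CPM in leukocytes, rested on 12 UMIs, and the ranges of those 2 types did not overlap. In dilator muscle Adra1b stood at 26.2, 29.1 and 30.1 CPM (28.5 ± 2.02, n = 3), with a UMI in 8.54% of nuclei, against 1.47% in stroma 1 and 1.94% in iris PE. Its level in dilator muscle was above that in the adjacent iris PE (5.90 ± 1.27 CPM, n = 3) in every untreated library. CBE was close to dilator muscle, at 24.6 ± 10.1 CPM (n = 3), and its libraries overlapped with it.

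The promoter of Adra1b is shown because this gene moved in opposite directions in stroma 2 and dilator muscle under dilation. The 250 bases before the distal start, chr11:43901238-43901487 (GRCm38.p6, RefSeq, minus strand), are given 5′ to 3′, with capitals marking the only match to the AP-1 letters TGACTCA, here on the opposite strand as TGAGTCA and beginning 198 bases before the start.
Adra1b: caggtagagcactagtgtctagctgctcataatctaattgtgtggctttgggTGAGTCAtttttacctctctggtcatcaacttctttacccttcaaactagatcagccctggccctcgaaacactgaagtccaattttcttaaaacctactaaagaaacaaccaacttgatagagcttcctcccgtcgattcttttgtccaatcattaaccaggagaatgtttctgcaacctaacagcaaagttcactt
The same letters, searched on both strands, occurred in 4.46% of the 32851 RefSeq windows of this length. The GC content of the window was 41.6%. The cyclic AMP response element TGACGTCA, its core TGACG, the EGR letters GCGGGGGCG, TATAAA and the GC box GGGCGG had no match in this window, which says only that these letters are not there. A second annotated start of the gene, within its body, had no AP-1 match, and the 3′-end counts do not tell the starts apart. The windows of Adra2a, Adra2b, Adra2c and Adrb1 were searched for the same letters and had no AP-1 match either. A link of the AP-1 letters to the change of Adra1b was not tested.

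Adra2a, which encodes the alpha-2A receptor, lies at chr19:54044151-54048982 (GRCm38, plus strand) as a gene without introns. In untreated stroma 2 it stood at 26.6, 27.8 and 22.4 CPM (25.6 ± 2.87, n = 3), with a UMI in 5.20% of nuclei. All other types were at or below 1.43 CPM, the mean of sphincter 1, which was 17.8 times lower and did not overlap. In CB, sphincter 2 and endothelial cells no UMI was found, which for 0 of 149 endothelial nuclei allows a share of nuclei with a UMI of up to 2.01%.

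Adrb1, the beta-1 receptor gene (chr19:56722199-56733113, GRCm38, plus strand), stood at 77.6, 44.3 and 74.8 CPM in untreated endothelial cells (65.5 ± 18.4, n = 3), with a UMI in 14.1% of nuclei (21 of 149). Leukocytes followed at a mean 5.05 times lower, on 9 UMIs, without overlap. Of its 58 UMIs over all libraries, 28 were in endothelial cells, 17 in leukocytes and 8 in sphincter 1.

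The 4 remaining members had at most 9 UMIs in any cell type over all 8 libraries, too few to order the types. The part that free RNA has in these counts was not tested. Adra1d, the alpha-1D gene (chr2:131545850-131562283, minus strand), had 9 of its 16 UMIs in stroma 2. Adra2b, an alpha-2 gene without introns (chr2:127363208-127367221, plus strand), had 8 of 14 in stroma 2 and 5 in sphincter 1. Adra2c, the alpha-2C gene (chr5:35278319-35281763, plus strand), had 8 of 26 in CB and 8 in stroma 2. Adrb3, the beta-3 gene (chr8:27225776-27250616, minus strand), had 9 of 25 in dilator muscle. All these positions are on GRCm38, and no member was overlapped by another gene on its own strand, while Adra1d and Adrb3 each overlapped 1 gene on the opposite strand.

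Across genes, the order of levels depended on whether and how they were divided by length. How far these 3′-end counts grow with gene length was not tested, so no order is preferred. Undivided, the untreated levels were 479 CPM for Adra1a in dilator muscle and 236 for Adra1b in stroma 2. Adrb1 in endothelial cells stood at 65.5 CPM, on 24 UMIs, and Adra2a in stroma 2 at 25.6 CPM. Per kilobase of the whole gene span, the untreated levels were 6.01 CPM for Adrb1 in endothelial cells, 5.30 for Adra2a in stroma 2, 3.52 for Adra1a in dilator muscle and 1.86 for Adra1b in stroma 2. Per kilobase of exon they were 69.7 CPM for Adra1b in stroma 2, 54.8 for Adra1a in dilator muscle, 19.4 for Adrb1 in endothelial cells and 5.30 for Adra2a in stroma 2. Reads in introns were counted, and introns make up most of both alpha-1 genes and none of Adra2a. Within dilator muscle, where length did not change the order, Adra1a was above Adra1b on both scales, at 3.52 against 0.225 CPM per kilobase of span.

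Dilation was compared with the untreated state to learn whether receptor transcripts changed after hours of phenylephrine and cyclopentolate drops in the dark, which cannot be told apart. Adra2a rose 4.48-fold in stroma 2, Adra1b fell in stroma 2, and Adra1b rose 1.70-fold in dilator muscle. Of 80 pairs of member and cell type, 12 had enough counts to be tested, all of Adra1a, Adra1b and Adra2a, and 3 of the 12 passed. Over all genes and cell types, 3.34% of the tested pairs passed in this comparison, with 13.3% in dilator muscle and 1.73% in stroma 2. Tests were edgeR's quasi-likelihood test (two-sided, Benjamini-Hochberg adjustment over every gene that passed the count filter there). A change was called where the adjusted p was under 0.05 and the log2 fold change exceeded 0.6 in size. The study describes the libraries of a condition as independent biological replicates, with conditions spread over several processing batches and sequencing runs. The labels do not say which library was in which batch or sequencing run. The p-values measure the spread between libraries.

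**Figure D2:**
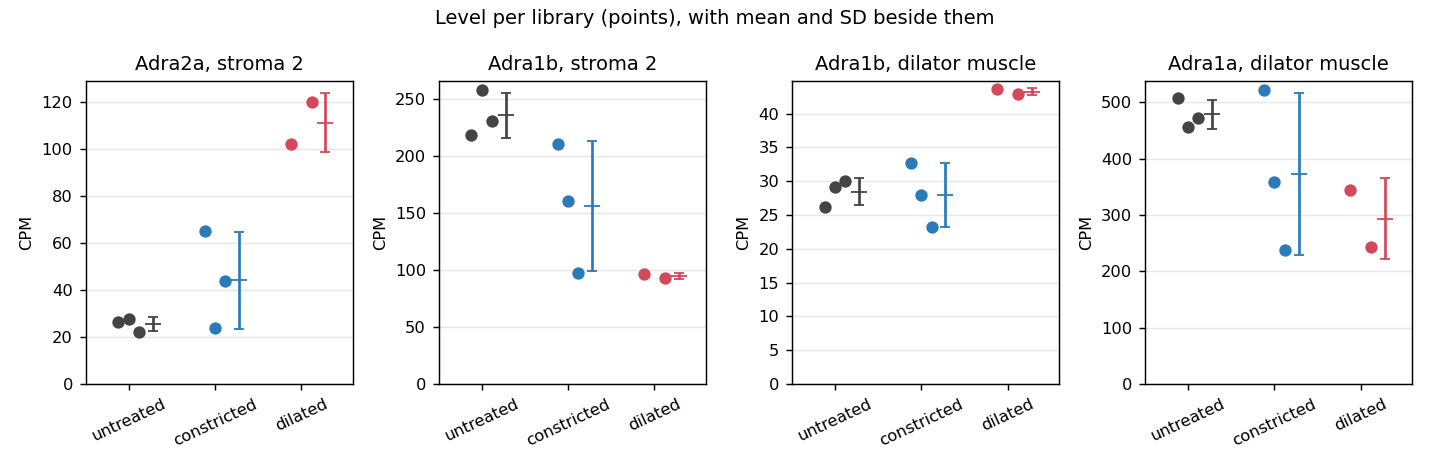
Level in CPM (y axis, from 0, a separate scale for each panel) of Adra2a and Adra1b in stroma 2 and of Adra1b and Adra1a in dilator muscle, with 1 point for each library of the untreated, constricted and dilated groups, and the mean with its SD beside them. Both dilated libraries of Adra2a (102 and 120 CPM) sat above all others, both of Adra1b in stroma 2 sat below all others, and both of Adra1b in dilator muscle sat above all others.

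Adra2a in stroma 2 stood at 26.6, 27.8 and 22.4 CPM untreated, at 65.0, 23.7 and 43.9 CPM constricted, and at 102 and 120 CPM dilated. Both dilated libraries were above every other library, while the constricted libraries were spread from within the untreated range to well above it. The log2 fold change of dilated against untreated was 2.16 (SE 0.285, edgeR adjusted p = 0.00379). With dilated 1 or any other library left out it stayed past the threshold, with log2 fold changes of 2.00 to 2.33 and adjusted p of at most 0.0493. The ratio of dilated to untreated level was 3.85 among the libraries numbered 2 to 4 in the titles and 4.79 among those numbered 15 to 18. Each such ratio, here and below, is one of CPM without the scaling used in the fit, so it is not on the scale of the log2 fold change. Each also rests on 1 dilated library.

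More nuclei of stroma 2 had an Adra2a UMI in the dilated libraries: 19.2%, against 9.65% constricted and 5.20% untreated, at median depths of 2521.5, 2336 and 2425 UMIs. After thinning, the shares were 9.29%, 5.42% and 2.81%. Outside stroma 2 the gene had at most 33 UMIs in any type and group, and the dilated mean was also above the untreated mean in each of the 9 other types, for example 1.98 against 0.665 CPM in dilator muscle and 2.24 against 0.547 CPM in iris PE. The difference between the dilation effects in stroma 2 and dilator muscle did not pass (log2 difference 0.34, SE 0.664, edgeR adjusted p = 0.852), so a change particular to stroma 2 was not shown. The part that free RNA from stroma 2 has in these low values was not tested.

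The summed level of 5 endothelial markers in stroma 2 was higher beside Adra2a, at 195 to 256 CPM over the untreated libraries and 632 to 811 CPM over the dilated ones. Cldn5, a tight junction gene, was at 112 CPM untreated and 502 CPM dilated. Flt1, a receptor for vascular growth factors, was at 78.2 and 149 CPM, and Erg, an endothelial transcription factor, at 5.93 and 40.9 CPM. Pecam1 was at 26.7 and 28.5 CPM, and Cdh5, which encodes the endothelial cadherin, at 0.602 and 0.809 CPM. No marker of the 5 had a group mean of 0, though Cdh5 was at 0 CPM in a dilated library. Adra2a itself had no UMI in untreated endothelial nuclei and 2 UMIs in dilated ones, and the part of endothelial RNA in the Adra2a change was not tested further. The 4 stroma 2 markers summed to 4987 to 6278 CPM untreated and 4781 to 5154 CPM dilated.

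Adra1b in stroma 2 stood at 219, 258 and 231 CPM untreated, at 211, 160 and 97.1 CPM constricted, and at 96.8 and 92.9 CPM dilated. Both dilated libraries were below all others, with constricted 3 next to them. The log2 fold change of dilated against untreated was -1.28 (SE 0.257, edgeR adjusted p = 0.0261). The size was steady when any library was left out (-1.35 to -1.19), but the call was not: the adjusted p was 0.116 without dilated 1, 0.0920 without dilated 2, 0.131 without untreated 2, 0.130 without untreated 3 and 0.0559 without constricted 2. Within runs of library numbers the ratio was 0.442 (2 to 4) and 0.380 (15 to 18). The share of nuclei with a UMI was 32.5% untreated, 24.5% constricted and 16.6% dilated, and 18.4%, 13.9% and 8.60% after thinning.

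Adra1b in dilator muscle stood at 26.2, 29.1 and 30.1 CPM untreated, at 32.7, 27.9 and 23.2 CPM constricted, and at 43.6 and 42.9 CPM dilated. The dilated libraries were above all others, and the untreated and constricted ones overlapped. The log2 fold change of dilated against untreated was 0.77 (SE 0.175, edgeR adjusted p = 0.0117), and the ratio was 1.67 within libraries 2 to 4 and 1.45 within 15 to 18. The call was lost without dilated 2 (log2 fold change 0.70, adjusted p = 0.0816). It was also lost when libraries were scaled by size alone (0.59, adjusted p = 0.0387), a scaling that moved the median log2 fold change of all genes in this type from 0.02 to -0.16 and the split of calls from 1109 higher and 945 lower to 726 and 1532. After thinning, 4.11% of dilated nuclei had a UMI, against 3.16% untreated and 3.14% constricted. The 4 listed dilator markers summed to 3384 to 3460 CPM untreated and 2322 to 2929 CPM dilated, but they did not move together. The untreated and dilated means were 1931 and 1193 CPM for Myh11 and 246 and 117 CPM for Nos1. For Acta2 they were 613 and 621 CPM, and for Cit 633 and 694 CPM.

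The dilation effect on Adra1b differed between cell types. In a joint fit of stroma 2 and dilator muscle with a term for each library, the effect in stroma 2 was lower by 2.04 on the log2 scale than that in dilator muscle (log2 difference -2.04, SE 0.173, edgeR adjusted p = 2.5e-06), in a fit in which 7.56% of all genes passed. Against iris PE the difference was -1.43 (SE 0.290, adjusted p = 0.00565), in a fit in which 3.22% passed, and it did not pass without the library terms (-1.37, adjusted p = 0.264). These were 2 of 49 member differences over 17 such fits, and the other 47 did not pass. The share of all Adra1b UMIs in stroma 2 went from 74.6% untreated to 39.3% dilated, and that in dilator muscle from 18.0% to 49.8%. These shares also depend on how many nuclei of each type were captured.

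**Figure D3:**
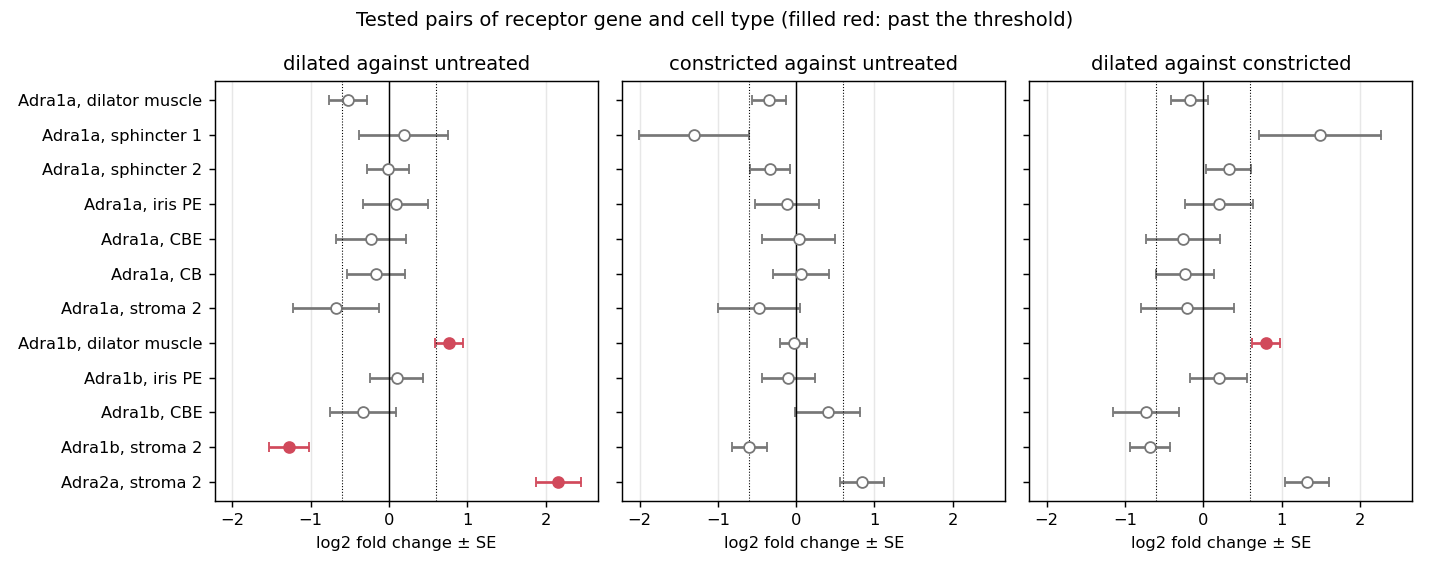
Log2 fold change with its SE (x axis) of the 12 tested pairs of receptor gene and cell type (y axis) in the 3 comparisons, from edgeR, with dotted lines at 0.6 on either side of 0 and filled red points past both thresholds. Adra2a and Adra1b in stroma 2 and Adra1b in dilator muscle passed in dilated against untreated, none passed in constricted against untreated, and Adra1b in dilator muscle passed in dilated against constricted.

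Adra1a, through which phenylephrine can act on the dilator muscle, did not pass there. Its levels were 507, 456 and 473 CPM untreated, 523, 358 and 238 CPM constricted, and 344 and 243 CPM dilated. Both dilated libraries were below the untreated ones, but the constricted libraries covered the range of both. The log2 fold change of dilated against untreated was -0.52 (SE 0.240, edgeR adjusted p = 0.175). It passed when the run of library numbers was a term of the fit (-0.62, adjusted p = 0.0277), and also with the replicate number as a block. Over the alternatives that kept all libraries the log2 fold change lay between -0.70 and -0.52, so whether it passes depends on the fit. With a library left out it did not pass, at -0.36 without dilated 2 (adjusted p = 0.576), -0.71 without dilated 1 (0.180) and -0.52 without constricted 3 (0.0486, with the change under the size threshold). The share of dilator nuclei with a UMI was 68.5% untreated, 61.4% constricted and 54.9% dilated, and 36.1%, 29.4% and 23.1% after thinning, while the median depth was highest in the dilated nuclei (3758 UMIs against 3410 untreated).

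In sphincter 2 Adra1a stood at 247, 196 and 234 CPM untreated and at 252 and 167 CPM dilated, with a log2 fold change of -0.02 (SE 0.272, with 2 SE on either side reaching from -0.56 to 0.53). The groups overlapped. Its dilation effect in dilator muscle was 0.52 lower than in sphincter 2 on the log2 scale (log2 difference -0.52, SE 0.217, edgeR adjusted p = 0.268), which did not pass. The 9 pairs that did not pass in dilated against untreated had log2 fold changes from -0.68 to 0.19.

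**Figure D4:**
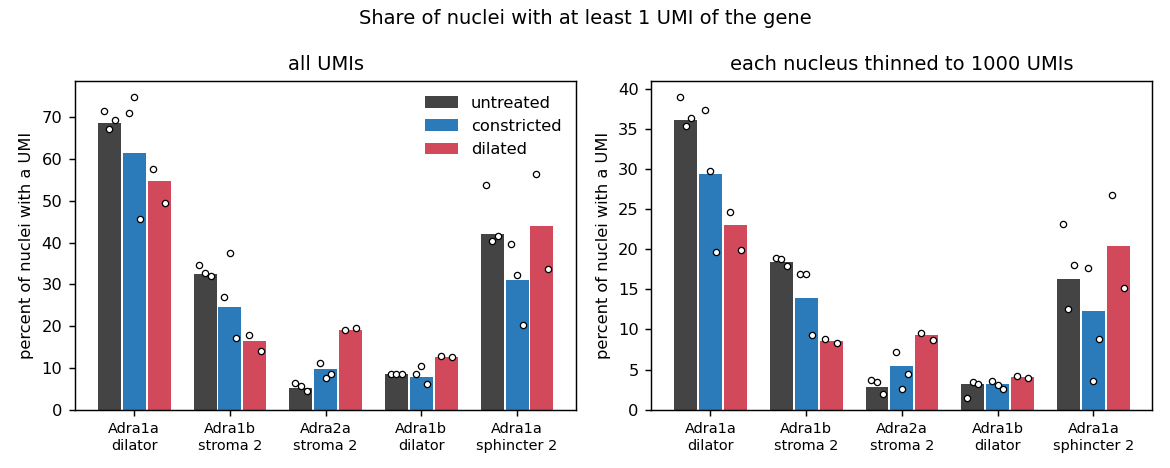
Percent of nuclei with at least 1 UMI (y axis, from 0) of Adra1a in dilator muscle and sphincter 2, Adra1b in stroma 2 and dilator muscle, and Adra2a in stroma 2 (x axis), for the pooled nuclei of the untreated, constricted and dilated libraries (bars) and for each library (points), with all UMIs at left and after thinning to 1000 UMIs per nucleus at right. The Adra2a share in stroma 2 was 5.20% untreated and 19.2% dilated with all UMIs, and 2.81% and 9.29% after thinning.

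Adrb1 in endothelial cells had 24 UMIs in the untreated, 3 in the constricted and 1 in the dilated libraries. Its levels were 77.6, 44.3 and 74.8 CPM untreated, 0, 53.5 and 38.3 CPM constricted, and 7.09 and 0 CPM dilated. Pooled over the libraries of a group, this was 62.6 CPM untreated (exact Poisson 95% interval 40.1 to 93.1) and 5.28 CPM dilated (0.134 to 29.4), intervals that cover counting error only. The share of nuclei with a UMI was 14.1% untreated, and 1 of 73 dilated nuclei had one. The gene was below the count filter, and when the filter was dropped the difference did not pass (edgeR unadjusted p = 0.00312, adjusted p = 0.591). In endothelial cells the untreated and dilated libraries were thus apart, while the constricted ones overlapped with both. In leukocytes all 3 groups overlapped, at 0 to 26.5 CPM untreated, 10.8 to 29.6 CPM constricted and 13.1 to 13.2 CPM dilated.

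Constriction was compared with the untreated state in the same fits, so that both comparisons share the untreated libraries. No tested pair passed (0 of 12 in edgeR and 0 in DESeq2), where 0.0118% of all tested pairs did, and 2 pairs had an unadjusted p under 0.05. Adra2a in stroma 2 had a log2 fold change of 0.84 (SE 0.281, edgeR adjusted p = 0.719), and Adra1b in stroma 2 one of -0.60 (SE 0.222, adjusted p = 0.808). Without constricted 1 the Adra2a value was 0.48, and without constricted 3 the Adra1b value was -0.35. Single constricted libraries differed: the ratio of constricted to untreated level of Adra1b in stroma 2 was 0.964 within libraries 2 to 4 and 0.397 within 15 to 18. That of Adra1a in dilator muscle was 1.03 and 0.511. Each ratio rests on 1 constricted library, and constricted 2 is in neither run. A link to library number thus cannot be told from spread between libraries. The largest log2 fold change, -1.30 for Adra1a in sphincter 1 (SE 0.697, adjusted p = 0.860), rested on 9 constricted UMIs and on an untreated group in which 54 of 63 UMIs came from untreated 3.

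Dilated against constricted, which shares libraries with both comparisons above, gave 1 of 12 pairs past the threshold, where 2.65% of all tested pairs passed. Adra1b in dilator muscle was higher by 0.80 on the log2 scale (SE 0.177, edgeR adjusted p = 0.0111), a call that was lost without dilated 2 (0.74, adjusted p = 0.0810). Adra2a in stroma 2 had a log2 fold change of 1.32 (SE 0.279, adjusted p = 0.0675) and passed without constricted 1 (1.68, adjusted p = 0.0247). Adra1b in stroma 2 had one of -0.68 (SE 0.256, adjusted p = 0.422).

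Nuclei in which 2 receptors were detected together were counted after thinning, against the number that independent detection within each library would give. In stroma 2, Adra1b and Adra2a were found together in 64 nuclei against 44.1 expected, a ratio of 1.45. By group this was 22 against 15.2 untreated, 19 against 12.9 constricted and 23 against 16.1 dilated. In dilator muscle, Adra1a and Adra1b were found together in 124 nuclei against 118 expected (ratio 1.05). In sphincter 2, Adra1a and Chrm3, a muscarinic receptor gene of the sphincter, were found together in 37 nuclei against 45.1 expected (0.82). These are descriptions with no test, and doublets in the annotated nuclei were not sought.

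The genes whose pattern over cell types was most like each receptor were found by Pearson's r of log2(CPM + 1) over 30 untreated sums (10 cell types in 3 libraries) among 14390 genes. These points share libraries and depth, and the cell types set most of the spread. Nearest to Adra1a were Gm49067 (r = 0.87), Sphkap, which encodes an anchoring protein of protein kinase A (0.86), Mapk4 (0.86), AC129186.1 (0.85) and Unc13c (0.85). Nearest to Adra1b were Nampt, an enzyme of NAD synthesis (0.85), Tfap2b, a transcription factor that marks stroma 2 (0.82), Ecm1 (0.81), Itgbl1 (0.80) and Ttc6 (0.80). Among the genes nearest to Adra2a were Olfr1307 (0.90), Gm16063 (0.90), Gm11816 (0.88) and Gm16064 (0.87), all low in level like Adra2a itself. Adra1b and Adra2a had an r of 0.67 with each other.

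Genes related to the receptors were taken from 6 lists. Those of the Gq, Gi, and Gs and cyclic AMP arms and of receptor desensitization hold genes that act downstream of receptors or limit them. Those of catecholamine synthesis, uptake and breakdown and of muscarinic receptors do not act downstream of adrenergic receptors. In dilated against untreated, edgeR called 20 of 380 tested pairs of list gene and cell type, and DESeq2 called 19, where 3.34% of all tested pairs passed, and 13.3% in dilator muscle, which held most of these calls. In dilator muscle, of 16 tested genes of the Gq arm, 2 rose and 1 fell, where 7.2% of all genes rose and 6.14% fell. Prkca and Prkcb, which encode classical protein kinases C, rose by 1.05 and 0.80 (log2 fold changes, edgeR adjusted p = 0.000322 and 0.0131), and Prkch, a protein kinase C of another class, fell by 1.48 (adjusted p = 0.0347). The median log2 fold change was 0.08 for this list and 0.02 for all genes. Of 8 genes of the Gi arm none rose and 2 fell: Kcnj3, a subunit of G protein-gated potassium channels, went from 198 ± 26.4 CPM (n = 3) to 77.0 ± 5.30 CPM (n = 2), a log2 fold change of -1.18, and Gnaz, an alpha subunit of the Gi class, had one of -1.17. The median of this list was -0.50. Kcnj3 and Prkca kept their calls under all 16 alternatives, library losses included. Gnaz lost its call without dilated 1, dilated 2, untreated 2 or untreated 3, Prkch without dilated 2, untreated 1, untreated 3 or the 5% deepest nuclei, and Prkcb without dilated 1 or untreated 3 and with scaling by library size alone.

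Of 17 genes of the Gs and cyclic AMP arm in dilator muscle, 3 rose and 1 fell. Adcy8, an adenylyl cyclase, rose by 0.90 on the log2 scale, Prkar1a, a regulatory subunit of protein kinase A, by 0.84, and Gnal, a Gs-like alpha subunit, fell by 1.11. The remaining one was Gnas, the Gs alpha subunit, at 0.63, named here after its value was seen, and its call was lost without dilated 2 or any untreated library and with scaling by library size alone. Gnal lost its call without dilated 1, and Prkar1a without dilated 2. Of 10 genes of receptor desensitization 1 rose, Rgs2, a regulator that limits Gq signaling (log2 fold change 2.02), at 1.29 ± 0.766 CPM untreated (n = 3) and 4.14 ± 1.52 CPM dilated (n = 2). This Rgs2 call was lost in DESeq2, with scaling by library size alone, without the 5% deepest nuclei, and without either dilated library, untreated 2 or untreated 3. Rgs2 was far higher in stroma 2 in both groups, as given below. The part that free RNA from stroma 2 has in these low dilator values was not tested. Of 7 genes of catecholamine synthesis, uptake and breakdown none passed. Of 4 muscarinic receptor genes Chrm2, which couples to Gi, fell by 1.13 on the log2 scale, a call lost without dilated 2.

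In stroma 2, where 1.35% of all genes rose and 0.383% fell, the passing genes of these lists all rose. In the Gq arm 1 of 15 passed, Prkca, from 311 ± 45.5 CPM (n = 3) to 712 ± 72.5 CPM (n = 2), a log2 fold change of 1.25. None of 6 Gi genes passed. In the Gs and cyclic AMP arm 3 of 17 passed, namely the adenylyl cyclases Adcy2 (1.63) and Adcy6 (1.22) and the protein kinase A subunit Prkar2b (1.47). Of 9 desensitization genes Rgs2 rose by 2.11 on the log2 scale, from 20.9 ± 3.55 CPM untreated (n = 3) to 91.7 ± 50.4 CPM dilated (n = 2). Without untreated 2 all 5 of these calls were lost, without untreated 3 all but that of Rgs2, and Adcy2 also lost its call without untreated 1, dilated 1 or constricted 2. None of 5 catecholamine genes and none of 3 muscarinic genes passed.

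**Figure D5:**
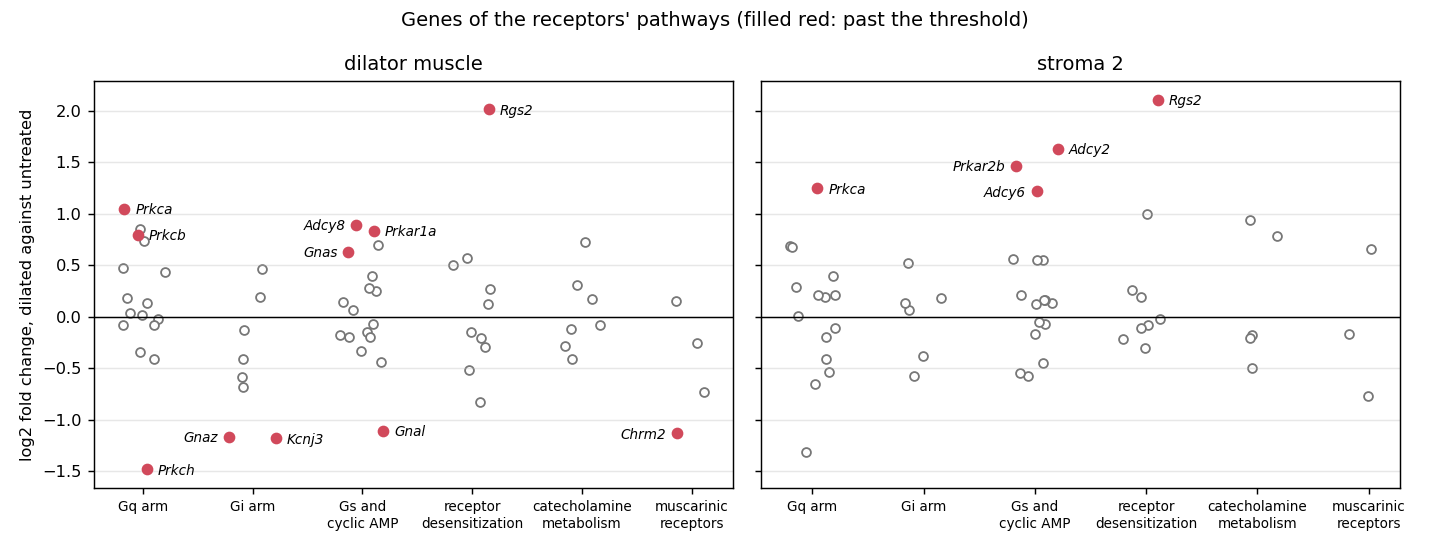
Log2 fold change of dilated against untreated (y axis) for the tested genes of 6 lists (x axis) in dilator muscle and stroma 2, from edgeR, with genes past the thresholds filled red and named and points spread sideways for legibility. Both Gi genes that passed in dilator muscle fell, and all genes that passed in stroma 2 rose, with Rgs2 highest in both types.

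In the other cell types few genes of these lists passed in dilated against untreated. In iris PE, where 0.595% of all genes passed, Plcb1, a phospholipase C (0.84), and Prkca (0.72) rose, and both calls were lost when any 1 dilated or untreated library was left out and, for Prkca, without constricted 2 or with scaling by library size alone. In sphincter 1, where 1.95% passed, 2 list genes fell, of which Chrm2 fell by 2.68 on the log2 scale, from 315 ± 35.4 CPM (n = 3) to 47.6 ± 2.08 CPM (n = 2). Its call was kept when any library was left out. In constricted against untreated none of the 380 pairs passed in edgeR, with 25 at an unadjusted p under 0.05, and 1 passed in DESeq2, Plcb1 in iris PE (0.76), named after its value was seen. Dilated against constricted gave 11 calls in edgeR, in dilator muscle and sphincter 1, where 10.5% and 3.7% of all genes passed. Among them were Kcnj3 (-0.91), Gnal (-1.52) and Prkca (0.81) in dilator muscle and Chrm2 (-2.75) in sphincter 1. In this comparison Kcnj3 lost its call without dilated 1, while Gnal, Prkca and Chrm2 kept theirs under all 16 alternatives.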

How the data were processed

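Nuclei of iris tissue were profiled with the 10× Genomics 3′ v3 kit. The authors counted reads in exons and introns of mm10 (the UCSC name of GRCm38) with Cell Ranger 3.1.0, removed nuclei by gene number and mitochondrial share, clustered the rest with Seurat and deposited raw UMI counts per gene and nucleus. They also deposited for each nucleus the percent of mitochondrial transcripts, which was at most 0.991, and its cell type, used as given; doublets were not called here.

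The UMIs of all nuclei of a type in a library were added up. Levels are CPM, with the mean and SD over libraries. Differences were tested with edgeR 4.0.16 in R 4.3.3 (TMM scaling, filterByExpr, quasi-likelihood test), with 1 model for each type over the 8 libraries together, since 2 dilated libraries give little spread of their own. The study's own test on nuclei was not used, because nuclei of a library are not replicates, but its thresholds were (log2 fold change 0.6, adjusted p 0.05). SEs were the log2 fold change over the square root of F. The method was tested on simulated data for dilated against untreated. A true log2 fold change of 1 was called for 45% of changed genes in dilator muscle, 32% in stroma 2 and 19% in leukocytes. For a true log2 fold change of 2 these were 83%, 91% and 74%. A pair that did not pass may thus still have changed. Libraries held 5189437 to 25136427 UMIs. A count of 0 allows up to 3 UMIs, which over the untreated libraries is 0.200 CPM in dilator muscle and 7.82 CPM in endothelial cells.

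Named were the 8 members, the 5 genes most like each member with at least 100 untreated UMIs, and of each list the passing genes, at most 3 of largest change. Some genes this rule names are not reported here. Members and lists were chosen with earlier results of these data known. Gene positions and lengths came from GENCODE release 21 of the mouse annotation, and promoters from RefSeq, whose table held 5 of the 8 members. Other genes of the family are not analysed here. Alternatives were RLE scaling, DESeq2 1.42.0, no count filter, replicate number or run of library numbers as a term, leaving out the 5% deepest nuclei and leaving out each library. Leaving out nuclei with shared barcodes and scaling by library size alone were chosen after seeing the data. Python 3.11.15 made the tables.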

Additional observations from a re-analysis of the deposited data

Results flagged for a closer look

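The effect of dilation on Adra1b, the alpha-1B receptor gene, differed between cell types by a test of the difference itself. In stroma 2 minus dilator muscle the log2 difference was -2.04 (SE 0.173, edgeR adjusted p = 2.5e-06), with both dilated libraries below the untreated ones in stroma 2 and above them in dilator muscle. In stroma 2 minus iris PE it was -1.43 (SE 0.290, edgeR adjusted p = 0.00565). Without a term for each library the first remained (-2.04, adjusted p = 0.00283) and the second did not pass (-1.37, adjusted p = 0.264). Both passed with RLE scaling. These joint fits were not repeated with a library left out.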

How the results depend on the processing

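Each comparison of conditions was repeated under 16 alternatives, 8 of which left out 1 library. Dilated against untreated gave 2 to 4 member calls under the alternatives that kept all libraries and 1 to 3 with a library left out, 1 of them without dilated 2. Adra2a in stroma 2 kept its call under all 16 (log2 fold change 2.00 to 2.33). Constricted against untreated gave 0 under all. Dilated against constricted gave 2 calls with DESeq2, without the count filter, with the run of library numbers as a term and without the 5% deepest nuclei, and 0 to 2 with a library left out. Replicate numbers were not taken to pair the libraries. Deviations from group means correlated at -0.03 to 0.45 for the same number, 0.13 to 0.45 within a run of library numbers and -0.45 to 0.09 between runs. Of the 21 correlations for the same number, 15 also lay within a run, and the other 6 were -0.033 to -0.0061. The 2 dilated libraries deviate from their mean by opposite amounts, which forces part of the negative values between runs. With the replicate number as a block there were 4, 0 and 1 calls, and the log2 fold changes of dilated against untreated were 2.08 (Adra2a, stroma 2), -1.44 (Adra1b, stroma 2), 0.73 (Adra1b, dilator muscle) and -0.68 (Adra1a, dilator muscle, edgeR adjusted p = 0.0317, the added call). Member differences between cell types gave 1 call without library terms, and their fits were not repeated with a library left out. The log2 ratio of the highest to the next type was 1.22 for Adra1a without the deepest nuclei and 3.20 for Adra2a over all 8 libraries; with an untreated library left out it was 1.02 to 1.12 for Adra1a, 1.92 to 3.05 for Adra1b and 3.54 to 4.18 for Adra2a. Some small, uncalled log2 fold changes turned direction: Adra1b in dilator muscle under constriction (-0.16 to 0.075 with a library left out), Adra1a in dilator muscle, dilated against constricted (-0.41 to 0.13), and Adra1a in sphincter 2 under dilation (-0.27 to 0.20, 0.11 without the deepest nuclei and 0.021 without shared barcodes). The cause of these changes was not tested. No call changed without shared barcodes. In the rarest types a few UMIs limit every value.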
